A study of Mus musculus with 3 samples.

Results

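Aldh1a3, Cd44 and Klf4 are 3 of the 258 genes counted in these sections, and were followed together because each is linked to progenitor or stem-like cells of the mammary gland and its tumours. They were chosen by name, with no measured value in the rule, though with earlier results of these data known. All 3 were found in every section. The question was whether they mark the same cells. Sections of 3 distinct mammary tumours titled MMTV-PyMT WT, fixed in formalin and embedded in paraffin, were imaged with a Vizgen MERSCOPE panel, 1 section per tumour, without treatment. All 3 tumours carry the polyoma middle T oncogene, which the mouse mammary tumour virus promoter drives in mammary epithelium. There was no control group, and the labels give neither age nor strain, do not say what WT denotes, and do not say whether the tumours came from separate mice. MERSCOPE reads out single RNA molecules in the section over repeated rounds of hybridization and imaging, and each molecule is counted in the cell outline that holds it. Tables also held 27 blank codes that match no gene, and these measured false decoding beside every value.

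Aldh1a3 encodes an aldehyde dehydrogenase that oxidizes retinaldehyde to retinoic acid, and aldehyde dehydrogenase activity is widely used to sort stem-like cells from breast tissue. Cd44 encodes a surface receptor for hyaluronan that serves, with other surface proteins, to sort tumour-initiating cells. Klf4 encodes a zinc finger transcription factor used in reprogramming to pluripotency, and it is also active in differentiating epithelium, in endothelium and in macrophages.

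The 250 bases before the start of Klf4 and of Cd44 are shown because Klf4 rose in cells with transcripts of the stress genes Fosb and Atf3, whose proteins bind AP-1 and related sites, and Cd44 is set beside it. They come from RefSeq on GRCm38.p6, from chr4:55532476-55532725 and chr2:102901666-102901915, both on the minus strand and read from 5′ to 3′. Capitals mark the GC box GGGCGG on either strand.
Klf4: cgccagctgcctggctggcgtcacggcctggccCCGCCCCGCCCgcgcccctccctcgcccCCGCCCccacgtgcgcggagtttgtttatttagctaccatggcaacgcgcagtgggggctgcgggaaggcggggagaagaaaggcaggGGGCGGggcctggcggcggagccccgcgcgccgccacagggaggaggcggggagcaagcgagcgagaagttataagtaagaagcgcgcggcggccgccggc
Cd44: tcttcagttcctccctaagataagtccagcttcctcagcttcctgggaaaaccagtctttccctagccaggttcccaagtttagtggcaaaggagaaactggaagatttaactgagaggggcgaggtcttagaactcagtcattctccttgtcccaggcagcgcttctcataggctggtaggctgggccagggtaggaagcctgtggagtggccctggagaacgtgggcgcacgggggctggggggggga
The Klf4 window held 4 GC boxes, 2 of them overlapping by 1 base, and the Cd44 window held 0, where 32.7% of 32851 promoter windows of this length held at least 1. Neither window held the AP-1 motif TGACTCA or TGAGTCA, present in 4.46% of windows, or the cyclic AMP response element TGACGTCA, present in 1.55%. A match or its absence describes these letters only.

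The tables held 71492483, 60759690 and 78051090 panel transcripts in 663145, 513963 and 786165 cells of tumours 1, 2 and 3, of which 620192, 454252 and 673904 cells were kept, and blank codes took 0.481% to 0.503% of all decoded transcripts. No cell identifier was shared between sections. Tumour cells here are the kept cells that passed an epithelial marker rule and no marker gate of another cell type (386257, 284077 and 459205 cells, with medians of 89, 101 and 95 transcripts). All levels are transcripts per 1000 panel transcripts. In the comparisons of cells rich in 1 member with cells that held 0 of it, that member was left out of the total. In tumour cells 129 of 258 genes lay above the highest blank in all 3 tumours.

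In tumour cells the Cd44 level was 1.89, 3.71 and 2.75 per 1000 in tumours 1, 2 and 3, against 0.395, 0.392 and 0.355 for the highest blank. Klf4 stood at 0.840, 0.773 and 1.26 per 1000, also above every blank in all 3 tumours. Aldh1a3 stood at 0.297, 0.401 and 0.865 per 1000, below the highest blank in tumour 1, just above it in tumour 2 and clearly above it in tumour 3. Section-wide levels of Aldh1a3 in tumours 1 and 2 therefore could not be told from false decoding, and its signal there had to be read from single cells and regions.

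Single cells rich in Aldh1a3 were far more frequent than its mean level gives. At least 3 Aldh1a3 transcripts were counted in 434, 556 and 3219 tumour cells, where independent decoding at each cell's depth (a Poisson spread) gives 3.37, 14.0 and 150.1, and where the most frequent blank reached 59, 66 and 219 cells. These cells held 15.8%, 17.2% and 32.8% of all Aldh1a3 transcripts of tumour cells. Klf4 reached 3 transcripts in 990, 1320 and 3745 cells, which is 14.1, 14.3 and 8.62 times the Poisson number. Cd44 had 1388, 8377 and 4904 such cells, at 1.99, 1.45 and 1.42 times the Poisson number. That number was 698, 5775 and 3460 for Cd44, so the ratios of genes and blanks were not matched for level. The median blank stood at 2.85, 2.49 and 3.30 times, and single blanks reached 68.5, 13.9 and 81.2 times, so that the ratio of Aldh1a3 exceeded every blank in tumours 1 and 2 only and that of Cd44 lay under the median blank in all 3.

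At least 1 Cd44 transcript was found in 16.2%, 31.3% and 24.2% of tumour cells. The share was 6.95%, 7.07% and 9.97% for Klf4 and 2.43%, 3.89% and 6.23% for Aldh1a3. Thinned to 50 transcripts per cell (323286, 241922 and 385154 cells deep enough), Aldh1a3 was in 1.27%, 1.93% and 2.89% of cells, against 1.92%, 1.95% and 1.74% for the blank of highest level. Read this way, the share of Aldh1a3-positive cells exceeded the blank in tumour 3 alone.

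Mapped in tiles of 100 µm with at least 10 tumour cells (4709, 6338 and 6890 tiles), the 3 genes formed patches. Only in tumour 1 did the largest joined patches of all 3 have tiles in common (54 tiles). These largest patches held 5.69% to 78.1% of the top 10% of tiles of their gene, and smaller patches were not compared. The 10% of tiles with the highest Aldh1a3 level held 48.8%, 39.2% and 69.9% of its transcripts, and those of Klf4 held 31.5%, 42.9% and 40.2%. Cd44 had the lowest shares, at 17.3%, 26.5% and 16.4%, and shares were not matched for level. Blanks measured the same way had medians of 26.4%, 29.3% and 24.1% and single blanks reached 37.4%, 55.4% and 74.7%, so a high share by itself did not separate a gene from a blank.

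**Figure D1:**
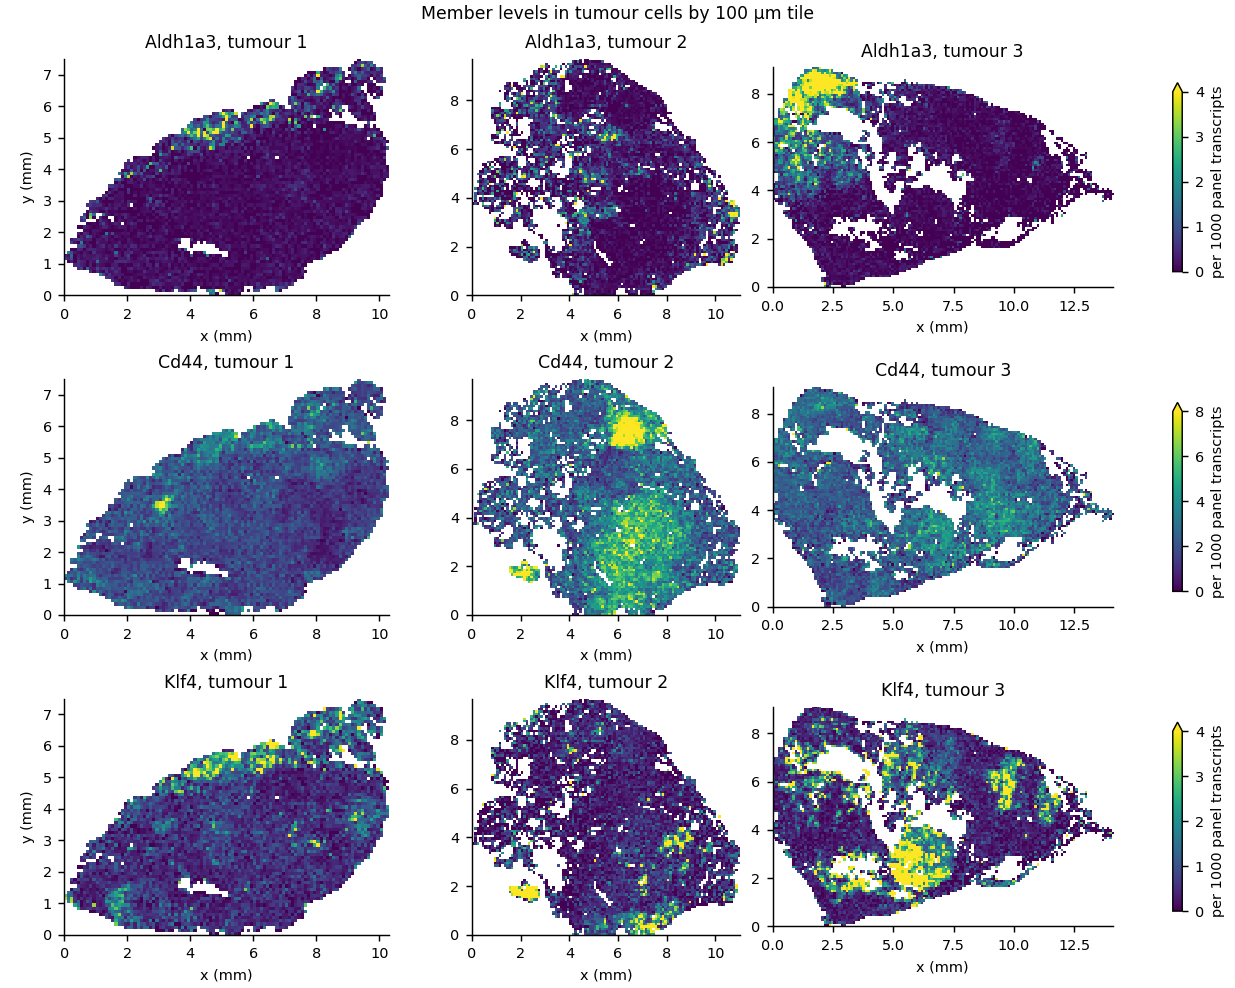
Levels of Aldh1a3, Cd44 and Klf4 (rows, transcripts per 1000 panel transcripts, colour) in tumour cells of each 100 µm tile of tumours 1, 2 and 3 (columns), with both axes in mm and white where a tile held fewer than 10 tumour cells. Colours saturate above the top of each scale, and the bright Aldh1a3 region at the upper left of tumour 3 is the patch that held 63.2% of its transcripts.

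In tumour 1 the largest joined patch of top Aldh1a3 tiles covered 165 tiles along the upper edge of the section. There Aldh1a3 stood at 2.03 per 1000 against 0.229 elsewhere, with the highest blank at 0.419 inside and 0.393 outside. The largest Klf4 patch (94 tiles) shared 82 tiles with it, which is 49.7% of the Aldh1a3 patch and 87.2% of the Klf4 patch. The largest Cd44 patch (80 tiles) shared 65 tiles with it, or 39.4% and 81.3%. All 3 patches had 54 tiles in common.

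In tumour 3, of the 3 largest patches, only those of Cd44 and Klf4 shared tiles. The Aldh1a3 patch of tumour 3 took 538 tiles and 8.81% of tumour cells, and held 63.2% of the Aldh1a3 transcripts at 4.01 per 1000 against 0.370 elsewhere. Klf4 was at 0.970 inside that patch and 1.31 outside it, and Cd44 at 2.91 and 2.73. Cells of the Aldh1a3 patch had a median of 156 transcripts against 91 elsewhere, and those of the largest Klf4 patch 82 against 96. What part depth had in these levels was not tested. The largest Klf4 patch of tumour 3 (219 tiles) had Klf4 at 7.04 against 1.05 per 1000 and Aldh1a3 at 0.143 against 0.893. Of its tiles 9 were shared with the largest Cd44 patch (78 tiles) and 0 with the largest Aldh1a3 patch. That Cd44 patch held Klf4 at 3.14 against 1.23 per 1000 elsewhere, with Cd44 at 4.66 against 2.72 and Aldh1a3 at 0.124 against 0.880.

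In tumour 2 the largest Cd44 patch (169 tiles) had Cd44 at 8.96 against 3.46 per 1000, with Aldh1a3 at 0.111 against 0.413 and Klf4 at 0.549 against 0.783. The largest Klf4 patch (128 tiles) had Klf4 at 2.91 against 0.720, beside a highest blank of 0.947 inside and 0.379 outside. The largest Aldh1a3 patch had 36 tiles, with Aldh1a3 at 3.26 against 0.382 and a highest blank of 0.577 inside and 0.391 outside. The 3 patches shared 0 tiles. Tiles were joined into patches by these same levels, so these values describe the patches and were not tested. At the 10% limit levels were continuous, for example 0.657 per 1000 in the last Aldh1a3 tile inside and 0.655 in the first outside in tumour 1.

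Other genes that led the patches, ranked with the 3 members left out, were partly the same between tumours. Fosb had the highest ratio to the rest of the section in the Aldh1a3 patch of each tumour (4.68 against 0.807, 4.57 against 0.560 and 3.37 against 0.686 per 1000). Atf3 was among the 5 leading genes of the Klf4 patch in each (8.72 against 1.35, 5.54 against 1.34 and 7.16 against 2.70). In the shared region of tumour 1, each member's patch had the stress genes Fosb and Atf3, the matrix gene Tnc (tenascin C) and the calcium-binding protein genes Anxa1 and S100a6 as its 5 other genes of highest ratio. Members themselves were high there too, with Aldh1a3 at 2.25 against 0.258 in the Cd44 patch and 2.30 against 0.248 in the Klf4 patch. In the Aldh1a3 patch, Atf3 stood at 7.01 against 1.31 per 1000 and Tnc at 9.92 against 1.93. The Cd44 patch of tumour 2 was led by the secreted Wnt inhibitor Wif1 (8.002 against 0.238) and the arginine-degrading enzyme Arg1 (24.1 against 2.35), and had Tnc at 0.220 against 2.17. The Klf4 patch of tumour 3 was led by the interferon-stimulated genes Isg15 (14.5 against 2.36) and Irf7 (43.2 against 9.05). Chad, a cartilage matrix protein gene, was among the 3 genes of lowest ratio in the Aldh1a3 patch of each tumour, at 0.177, 0.1004 and 0.422 per 1000 inside against 3.48, 3.48 and 5.46 outside.

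Neighbouring tiles resembled each other for all 3 genes. The Pearson correlation between tiles 100 µm apart was 0.477, 0.341 and 0.807 for Aldh1a3, 0.476, 0.674 and 0.375 for Cd44 and 0.508, 0.696 and 0.557 for Klf4 (9097, 11627 and 12762 tile pairs, which share a section and are not independent). The highest blank gave 0.322, 0.446 and 0.383, and the median panel gene 0.316, 0.253 and 0.305. Klf4 exceeded the highest blank in all 3 tumours, while Aldh1a3 in tumour 2 and Cd44 in tumour 3 did not. Among the 258 genes Aldh1a3 ranked 103, 117 and 11, Cd44 104, 33 and 120 and Klf4 93, 23 and 94, so most of these values were common on the panel. At 1600 µm Aldh1a3 in tumour 3 was at 0.457 against a highest blank of 0.120, and the other 8 values were 0.129 or less.

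**Figure D2:**
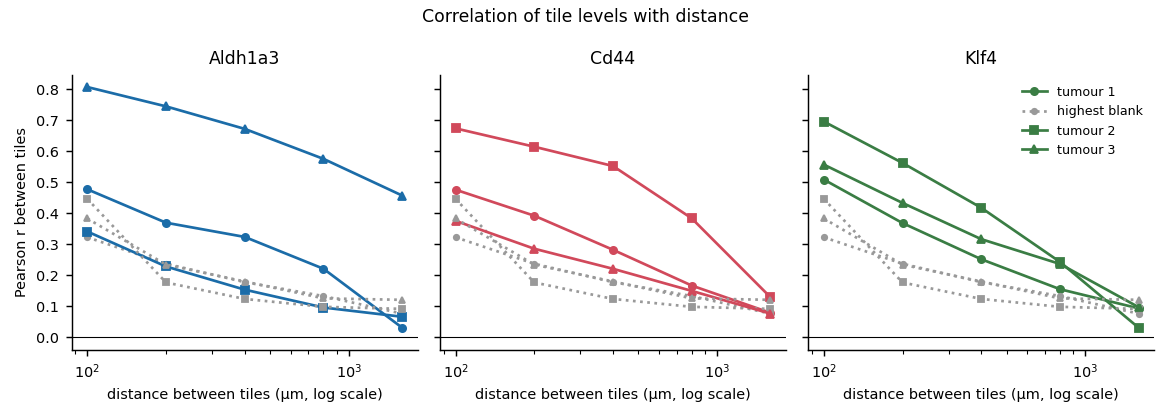
Pearson correlation (y axis) between levels of tiles at a given distance (x axis, µm, log scale) for Aldh1a3, Cd44 and Klf4 in each tumour, with the highest of 27 blanks dotted in grey. Aldh1a3 in tumour 3 fell from 0.807 at 100 µm to 0.457 at 1600 µm, while the other curves ended between 0.030 and 0.129.

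Levels per tile rose together for all 3 pairs in tumour 1, and for Cd44 and Klf4 in tumour 2. For Aldh1a3 and Klf4 the correlation over tiles was 0.486, 0.031 and -0.022, and the top 10% of tiles of each shared 44.9%, 11.5% and 7.11%. For Cd44 and Klf4 it was 0.258, 0.206 and 0.054, where the highest value of either gene with a blank was 0.179, 0.142 and 0.098. For Aldh1a3 and Cd44 it was 0.247, -0.171 and 0.076, with a negative sign in tumour 2. These are descriptions over tiles that share a section and their depth.

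Within single tumour cells, the count of cells with at least 1 transcript of both genes lay, on average over tumours, near that of independent detection for 2 of the 3 pairs. Of these, Aldh1a3 and Cd44 departed from it in opposite directions in tumours 1 and 2. Cells with both were compared with the number given by independent detection among cells of equal depth (20 depth bins). For Aldh1a3 and Cd44 the ratio of observed to expected cells was 1.19, 0.882 and 1.03 (mean 1.03 ± 0.15, SD, n = 3). For Cd44 and Klf4 it was 1.08, 1.05 and 1.01 (mean 1.04 ± 0.04). For Aldh1a3 and Klf4 it was 1.91, 1.13 and 0.990 (mean 1.34 ± 0.50), so that the pair was found together more often than independence gives in tumour 1 but not in tumour 3.

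Counts behind these ratios were large. Aldh1a3 and Klf4 occurred together in 1701 cells of tumour 1, where 889 were expected, and 18.2% of Aldh1a3-positive cells there held Klf4, against 6.95% of all tumour cells. In tumour 3 the pair occurred in 4233 cells, where 4275 were expected. All 3 members were found in 628, 474 and 2021 cells. Among cells with at least 3 transcripts of each gene, Aldh1a3 and Klf4 overlapped in 29, 16 and 89 cells, against 3.37, 4.68 and 73.4 expected. Aldh1a3 and Cd44 did so in 31, 42 and 349, against 5.20, 36.9 and 162, and Cd44 and Klf4 in 39, 132 and 140, against 11.4, 86.9 and 93.6. With at least 2 transcripts of each, the mean ratio over tumours was 1.68 for Aldh1a3 and Cd44, 3.13 for Aldh1a3 and Klf4 and 1.25 for Cd44 and Klf4. Blanks were not paired with the members at 2 or 3 transcripts, so these overlaps have no measure of false decoding beside them.

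Blanks set the scale for the ratios at 1 transcript or more of each gene. In tumour 1 the ratio of Aldh1a3 with Klf4 exceeded those of both genes with all 27 blanks, whose medians were 1.14 and 1.10. In tumour 3, 21 of 27 blanks had a higher ratio with Aldh1a3 than Klf4 had. Aldh1a3 with Cd44 was exceeded by 11, 26 and 18 of the 27 blanks paired with Aldh1a3, and by 0, 27 and 3 of those paired with Cd44. Cd44 with Klf4 was exceeded by 16, 19 and 17 of the 27 blanks paired with Klf4, but by 1, 3 and 10 of those paired with Cd44.

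The nearest neighbouring tumour cell, at most 25 µm away, gave almost the same ratios as the cell itself. For Aldh1a3 in a cell and Klf4 in its neighbour the ratio was 1.902, 1.08 and 1.001, and for Aldh1a3 and Cd44 it was 1.16, 0.864 and 1.03. Each gene was also found in adjacent cells together with itself. That ratio was 4.10, 3.26 and 2.17 for Aldh1a3, 1.86, 2.34 and 2.39 for Klf4 and 1.14, 1.12 and 1.07 for Cd44, against medians of 1.27, 1.21 and 1.31 and maxima of 1.66, 1.63 and 4.37 over blanks. Aldh1a3 and Klf4 exceeded every blank in tumours 1 and 2, and Cd44 lay under the median blank in each tumour. These ratios were not matched for level either.

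Within the same 100 µm tile the spread between tumours shrank. Aldh1a3 and Klf4 had ratios of 1.23, 1.19 and 1.14 (mean 1.18 ± 0.05, SD, n = 3) among cells of the same tile and similar depth. Blanks measured this way stood above 1 too, with medians of 1.11, 1.09 and 1.08 for Aldh1a3, and 3, 4 and 3 of 27 blanks exceeded the value of Klf4. Of the blanks paired with Klf4, 0, 1 and 5 exceeded it. Aldh1a3 and Cd44 had 1.09, 1.04 and 1.08, exceeded by 14, 19 and 13 of the blanks paired with Aldh1a3 and by 0, 9 and 2 of those paired with Cd44. Cd44 and Klf4 had 1.04, 1.03 and 1.03, exceeded by 25, 23 and 25 of the blanks paired with Klf4 and by 14, 22 and 25 of those paired with Cd44.

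**Figure D3:**
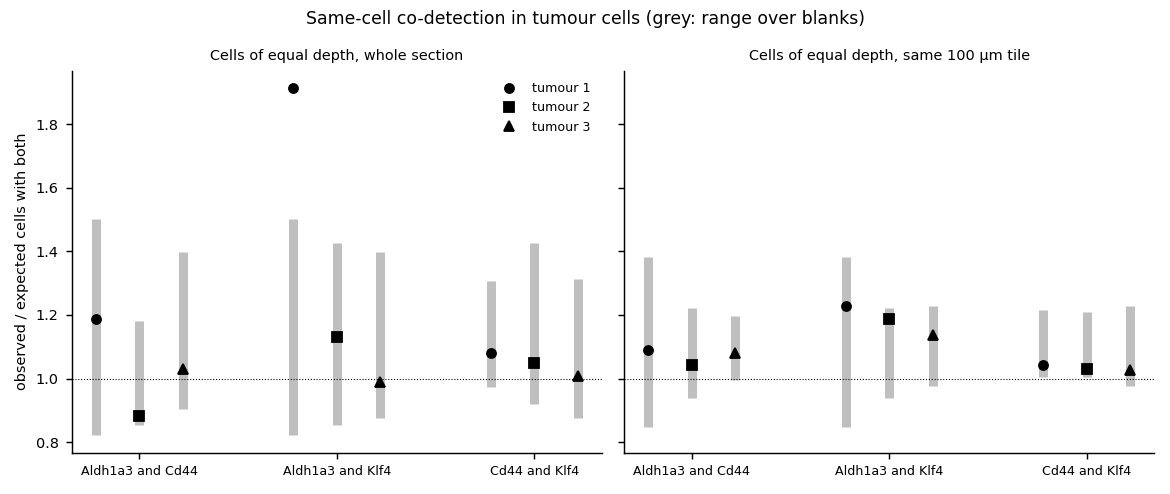
Ratio of observed to expected tumour cells that hold both genes of a pair (y axis), among cells of equal depth over the whole section (left) or of the same 100 µm tile (right), for tumours 1 to 3, with grey bars for the range over all blanks paired with either gene. Aldh1a3 with Klf4 in tumour 1 (1.91, left) is the value that stands above its grey bar.

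Tumour cells rich in 1 member (at least 3 transcripts) were then compared with cells of the same depth that held 0 of it. Sums per tumour were tested in edgeR with the tumour as a block. Klf4 was at 4.26, 1.82 and 1.38 per 1000 in Aldh1a3-high cells of tumours 1, 2 and 3, against 0.926, 0.798 and 1.26 in Aldh1a3-zero cells. It was higher in all 3 tumours, by a wide margin in tumour 1 and a narrow one in tumour 3, and did not pass the test (log2 fold change 1.16 ± 0.42, SE, edgeR adjusted p = 0.0815), where 20.2% of genes tested were called. It passed without tumour 3 (1.71, edgeR adjusted p = 0.00150) and without tumour 2 (1.25, edgeR adjusted p = 0.0427), and without tumour 1 it was 0.59 (edgeR adjusted p = 0.336).

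In Klf4-high cells Aldh1a3 was at 1.95, 0.827 and 1.34 per 1000, against 0.544, 0.404 and 1.28 in Klf4-zero cells, again higher in 3 of 3 tumours and short of the threshold (0.91 ± 0.34, edgeR adjusted p = 0.0957, with 20.2% of genes called). It passed without tumour 3 (1.43, edgeR adjusted p = 0.000182) and without tumour 2 (0.97, edgeR adjusted p = 0.0312), and without tumour 1 it was 0.50 (edgeR adjusted p = 0.449). Cd44 was not called in either comparison, at 0.50 ± 0.31 in Aldh1a3-high cells (edgeR adjusted p = 0.273) and 0.28 ± 0.22 in Klf4-high cells (edgeR adjusted p = 0.418). In Cd44-high cells no member and no other gene passed (0% called by edgeR, 29 genes at an unadjusted p under 0.05, 2 called by DESeq2, and 13 by edgeR without tumour 1). Blank codes rose by up to 0.95 in Aldh1a3-high cells and up to 1.02 in Klf4-high cells, close to the members' own values.

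With zero cells drawn from the same 300 µm tile, an alternative added after these results were seen, 5 of 6 member values passed. Klf4 was at 4.26, 1.80 and 1.38 per 1000 in Aldh1a3-high cells against 2.10, 0.967 and 0.844 in zero cells beside them (0.89 ± 0.12, edgeR adjusted p = 0.0109, 20.6% of genes called), and Cd44 at 4.22, 3.67 and 3.82 against 3.06, 2.75 and 2.70 (0.48 ± 0.11, edgeR adjusted p = 0.0384). Aldh1a3 rose in Klf4-high cells by 0.97 ± 0.20 (edgeR adjusted p = 0.0190, 26.5% called), where Cd44 was at 0.03 ± 0.09 (edgeR adjusted p = 0.825). In Cd44-high cells Aldh1a3 rose by 0.55 ± 0.10 (edgeR adjusted p = 4.53e-06, 12.1% called), with 1.09, 0.293 and 2.62 per 1000 against 0.507, 0.296 and 1.56, so that tumour 2 did not share the rise. Klf4 rose there by 0.28 ± 0.10 (edgeR adjusted p = 0.0353), and missed the threshold with library size alone (edgeR adjusted p = 0.0539).

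Blanks in these local comparisons reached 0.76, 0.11 and 0.81 in Aldh1a3-high, Cd44-high and Klf4-high cells. Of the 27 blanks, 2, 0 and 3 were called higher. Zero cells of the same tile were somewhat shallower, for example a median of 196 transcripts against 254 in Aldh1a3-high cells of tumour 3. What part this had in the result was not tested.

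Aldh1a3-high and Klf4-high cells had several leading genes in common. In Aldh1a3-high cells 22 genes were higher (8.91% of those tested) and 28 lower (11.3%), of which 13 and 23 lay above the highest blank in all tumours. Of the 27 blanks, 3 were called higher and 0 lower, so the count of higher genes did not stand apart from false decoding. The largest rises were Fosb, a subunit of the AP-1 transcription factor, from 0.855 ± 0.228 to 5.38 ± 1.97 per 1000 (log2 fold change 2.63), Tnc from 2.68 ± 0.45 to 14.4 ± 7.1 (2.31), S100a6 (1.69), Anxa1 (1.66) and Atf3, a stress-induced transcription factor (1.65). The largest falls were the Wnt inhibitor Wif1 (-3.64), Chad (-3.48), the acute phase gene Saa1 (-2.14), the smooth muscle kinase gene Mylk (-1.82) and the TNF receptor gene Tnfrsf1b (-1.55).

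In Klf4-high cells 21 genes were higher (8.17%) and 31 lower (12.1%), beside 3 of 27 blanks called higher and 0 lower. Fosb (2.25), Atf3 (1.97), the tight junction gene Cldn4 (1.497), fibronectin Fn1 (1.39) and Anxa1 (1.36) had the largest rises. Cldn4 went from 18.7 ± 8.9 to 50.3 ± 8.1 per 1000. Chad (-2.05), Wif1 (-1.98), Ecrg4 (-1.83), Mylk (-1.63) and the Notch ligand gene Dll1 (-1.44) had the largest falls. Both counts depend on tumour 1, without which 0 genes were called in either comparison.

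Of 7 progenitor or stem cell genes on the panel, the 3 members included, Lgr5, a receptor of R-spondin, was called higher in both Aldh1a3-high and Klf4-high cells, at 0.301 and 0.264 per 1000. With zero cells of the same tile its call was lost in Klf4-high cells (0.48, edgeR adjusted p = 0.0675) and held in Aldh1a3-high cells (0.71, edgeR adjusted p = 0.0297). In tumour cells as a whole it was not above the highest blank in all 3 tumours. Sox9, Axin2 and Sox11 were not called in either. Of 9 immediate early genes, 2 rose in Aldh1a3-high cells (Fosb, Atf3) and 3 in Klf4-high cells (Fosb, Fos, Atf3), with list medians of 0.45 and 0.47 beside 0.02 for all genes tested in each comparison. Among 4 genes of Cd44 ligands and partners Tnc rose in both, and Fn1 in Klf4-high cells.

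Of 4 epithelial differentiation genes, Cldn4 rose in both comparisons and Gata3, a regulator of luminal fate, fell in both (-0.57 and -0.92). Wap, a milk protein gene, fell in Klf4-high cells. The only retinoid gene on the panel besides Aldh1a3, the retinoic acid binding protein gene Crabp1, was not called in either. Expression of the other Aldh1a3-related enzymes was not analysed here.

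Tile by tile, the genes most like Aldh1a3 were Anxa1 (mean Pearson correlation 0.385 over 3 tumours), S100a6 (0.343), Tnc (0.342), Fosb (0.337) and Lamb3 (0.305), among genes above the highest blank. Those most like Klf4 were Anxa1 (0.520), Krt17 (0.471), Cldn4 (0.457), Atf3 (0.440) and S100a6 (0.390). Krt17, a stress-inducible keratin, had 0.206, 0.810 and 0.398 in tumours 1, 2 and 3. Those most like Cd44 were Arg1 (0.332), Nr4a2 (0.238), H2-K1 (0.225), Cpt1a (0.221) and Map3k1 (0.206), of which Arg1 reached 0.568 in tumour 2 and 0.249 and 0.180 elsewhere. The lists of Aldh1a3 and Klf4 shared Anxa1 and S100a6, and the list of Cd44 shared 0 genes with either.

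Gated by the stress genes Fosb and Atf3 (3978, 1904 and 8373 tumour cells), cells with stress transcripts held more Aldh1a3 and more Klf4 than other tumour cells in every tumour. Aldh1a3 was at 1.83, 0.860 and 4.03 per 1000 in stress-gated cells, against 0.271, 0.396 and 0.744 in other tumour cells, and Klf4 at 3.66, 3.02 and 2.38 against 0.792, 0.746 and 1.22. Both genes were higher in each of the 3 tumours. In edgeR both passed, Aldh1a3 at 2.25 ± 0.33 (adjusted p = 4.32e-05) and Klf4 at 1.86 ± 0.30 (adjusted p = 0.000126), with 37.6% of genes called. Without the block Aldh1a3 missed the threshold (2.41, edgeR adjusted p = 0.0800).

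Cd44 stood at 2.72, 3.12 and 2.86 per 1000 in stress-gated cells, against 1.88, 3.72 and 2.75, and did not pass (0.24 ± 0.27, edgeR adjusted p = 0.489). It was lower in stress-gated cells of tumour 2 and higher in the others. Of the 7 immediate early genes outside the gate, 6 rose (Fos, Nr4a1, Junb, Jun, Egr1 and Dusp1), with a list median of 1.14 beside 0.02 for all genes. Stress-gated cells were deeper, with medians of 151.5, 192.5 and 209 transcripts against 89, 100 and 94, and 8 of 27 blanks were called higher, by up to 1.17. The part of depth in these results was not tested, and both members exceeded the highest blank.

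Cycling cells, gated by Mki67 and Top2a, held less Klf4. Its level was 0.719, 0.532 and 0.692 per 1000 against 0.857, 0.792 and 1.32 in other tumour cells, lower in each tumour (-0.52 ± 0.14, edgeR adjusted p = 0.0168, with 31.0% of genes called). The call was lost without tumour 1 (-0.69, edgeR adjusted p = 0.129), without tumour 3 (-0.35, edgeR adjusted p = 0.110), without the block (-0.56, edgeR adjusted p = 0.815), in cells free of non-epithelial markers (-0.67) and with a gate at 5 transcripts (-0.60). Cd44 was at 2.29, 3.55 and 3.33 against 1.84, 3.72 and 2.69 (0.25 ± 0.12, edgeR adjusted p = 0.133) and Aldh1a3 at -0.17 ± 0.10 (edgeR adjusted p = 0.202). Cycling-gated cells were deeper, with medians of 139, 198.5 and 161 transcripts against 85, 98 and 91, and the part of depth was not tested. Of the 27 blanks 2 were called higher and 0 lower, with values from -0.20 to 0.42.

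Cells gated by the basal keratins Krt5, Krt14 and Krt15 had opposite Klf4 levels in different tumours. Klf4 was at 3.99 per 1000 against 0.703 in tumour 2, but at 0.626 against 0.854 in tumour 1 and 0.865 against 1.28 in tumour 3. No member passed (5.81% of genes called), and the fitted Klf4 value of 0.46 ± 0.64 turned to -0.47 without tumour 2 and passed at 1.08 without tumour 3 (edgeR adjusted p = 0.0184). Interferon-gated cells held Klf4 at 2.32 against 1.04 per 1000 in tumour 3, and at 0.714 against 0.845 and 0.811 against 0.763 in tumours 1 and 2, and no member passed there either (14.7% of genes called). In cells positive for Krt17 and Fn1 (4417, 812 and 40751 cells), Klf4 was at 2.22, 3.61 and 1.66 and Aldh1a3 at 0.478, 1.42 and 2.25 per 1000, a comparison that was not tested.

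**Figure D4:**
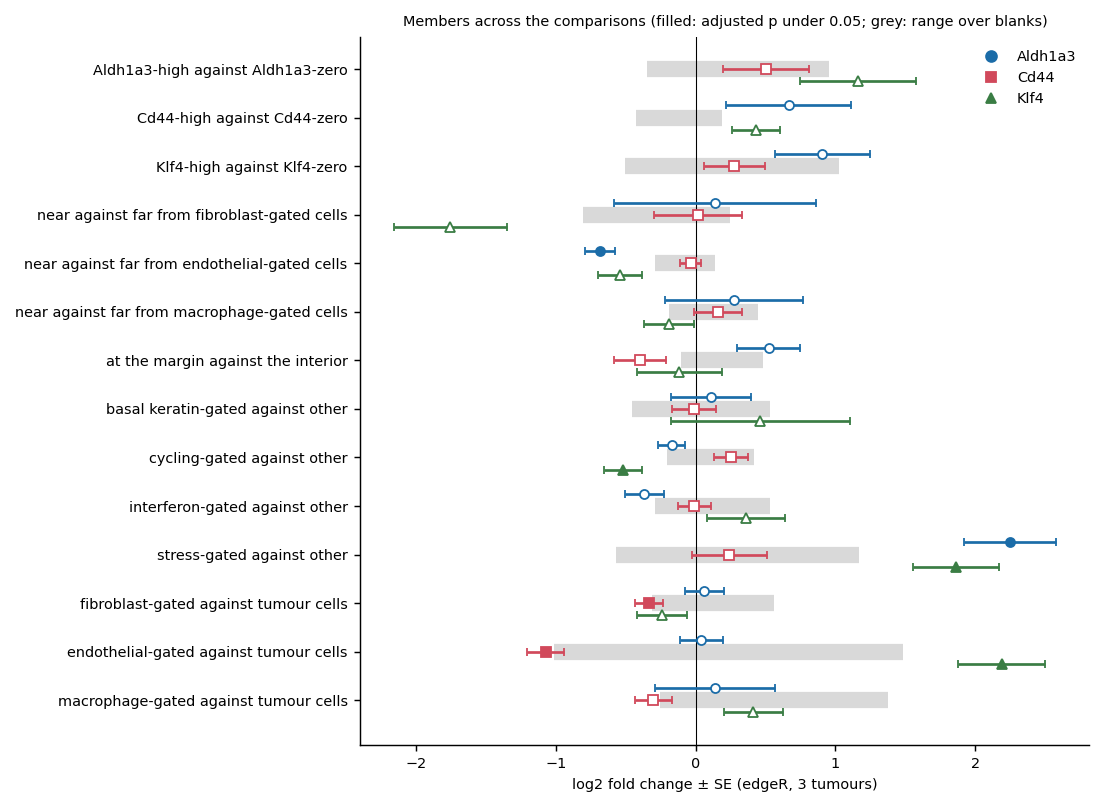
Log2 fold change (x axis, bars ± SE, edgeR, 3 tumours) of Aldh1a3, Cd44 and Klf4 in the 14 comparisons (y axis), filled where the adjusted p was under 0.05, with grey bars for the range over blanks. Aldh1a3 (2.25) and Klf4 (1.86) lie beyond the blanks in stress-gated cells, as does Klf4 (2.19) in endothelial-gated cells.

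Outside the epithelium the members parted. Gates rested on Pecam1 and Cdh5 for endothelium, Adgre1, Cx3cr1, Cd163, Folr2 and Ccl8 for macrophages, and Col1a1 with 6 other genes for fibroblasts. The fibroblast gate took 26.4%, 26.5% and 19.8% of kept cells, and these still held Sox9, an epithelial transcript, at 42.2, 37.9 and 40.1 per 1000, against 54.9, 56.2 and 47.8 in tumour cells. A narrow gate was therefore added after the data were seen, which asked for few epithelial transcripts and left 14614, 11135 and 8367 fibroblast, 3049, 1883 and 1290 endothelial and 1500, 737 and 298 macrophage cells. In these narrow classes Sox9 was between 4.16 and 10.1 per 1000. RNA of neighbouring cells inside a segmented outline cannot be told apart from a cell's own.

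Cd44 was lower in every narrow class than in tumour cells. It stood at 0.442, 0.570 and 0.458 per 1000 in narrow fibroblasts, under the highest blank (0.956, 0.898 and 1.10), and at 0.418, 0.806 and 0.597 in narrow endothelial cells, where the highest blank was 0.682, 0.680 and 0.635. Narrow macrophages held 1.30, 1.70 and 1.60, under the highest blank in tumours 2 and 3 (1.83 and 4.83). The log2 differences from tumour cells were -1.75 ± 0.20 (edgeR adjusted p = 2.24e-05, 77.1% of genes called), -1.68 ± 0.19 (edgeR adjusted p = 7.42e-05, 65.5% called) and -0.93 ± 0.22 (edgeR adjusted p = 0.00422, 56.6% called). The lowest blank was at -0.66, -1.35 and -1.29, so in narrow macrophages a blank fell further than Cd44. Of the 27 blanks, 5, 5 and 1 were called lower. With the gates as first set the Cd44 differences were -0.33 (edgeR adjusted p = 0.0274, 46.1% called), -1.07 (edgeR adjusted p = 0.00151, 59.3% called) and -0.30 (edgeR adjusted p = 0.142, 26.4% called). The lowest blanks there were close to them, at -0.31, -1.02 and -0.25. The fibroblast value lost its call without any 1 of the 3 tumours (-0.37 to -0.26) and without the block (-0.35), and the endothelial value without the block (-1.06, edgeR adjusted p = 0.0684).

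Klf4 was called higher in endothelial cells than in tumour cells as a whole under both gates. In macrophages it was called under the narrow gate but not under the gate as first set. Narrow endothelial cells held 5.24, 4.15 and 3.02 per 1000 and narrow macrophages 4.23, 2.64 and 5.58, against 0.840, 0.773 and 1.26 in tumour cells. In edgeR Klf4 was higher by 2.63 ± 0.27 in narrow endothelial cells (adjusted p = 3.64e-05) and by 2.19 ± 0.31 with the gate as first set (adjusted p = 0.00245), beside blanks that reached 1.82 and 1.48. In narrow macrophages the difference was 1.97 ± 0.22 (edgeR adjusted p = 2.64e-05), with 1 blank as high as 2.46, and in tumour 3 the highest blank stood at 4.83 per 1000 among 298 cells. With the gate as first set macrophages held Klf4 at 1.72, 0.921 and 1.73 per 1000, above tumour cells in each tumour, which did not pass (0.41 ± 0.21, edgeR adjusted p = 0.195).

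In narrow fibroblasts Klf4 was at 2.71, 1.47 and 1.78 per 1000, above the highest blank in each tumour (1.75 ± 0.24, edgeR adjusted p = 8.92e-05). Blanks reached 2.39 in this comparison, above Klf4, and 10 of 27 were called higher. With library size alone in place of TMM scaling this value was 1.04, since TMM moved the median of all genes from -0.58 to 0.13. The gate as first set gave -0.24 ± 0.18 (edgeR adjusted p = 0.276), so the sign turned with the gate. Aldh1a3 in narrow fibroblasts was at 0.767, 0.940 and 1.06 per 1000, no higher than the highest blank in tumours 1 and 3, and its difference of 1.67 ± 0.25 (edgeR adjusted p = 0.000185) rests on levels near that of false decoding. It was not called in endothelial or macrophage cells of either gate. Macrophage-gated cells as first set held Aldh1a3 at 0.293, 0.266 and 2.42 per 1000, with a highest blank of 0.407, 0.501 and 1.48, so that tumour 3 stood apart.

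**Figure D5:**
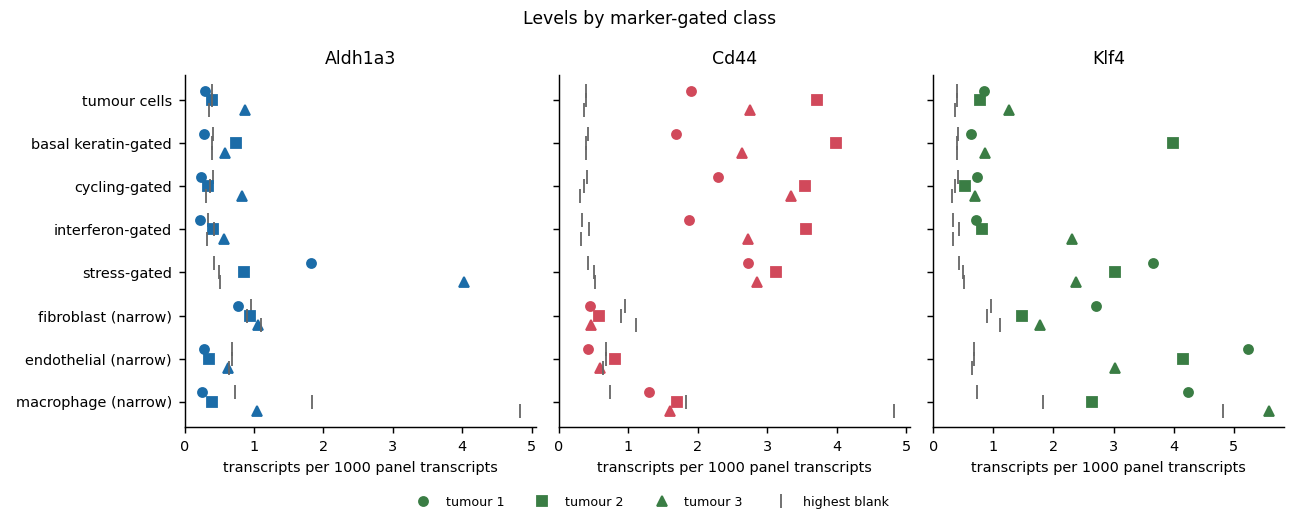
Transcripts per 1000 panel transcripts (x axis) of Aldh1a3, Cd44 and Klf4 in each marker-gated class (y axis), with 1 point per tumour and grey ticks for the highest blank of the same class and tumour. Klf4 in narrow endothelial cells (3.02 to 5.24) lies above tumour cells (0.773 to 1.26), whereas Cd44 there (0.418 to 0.806) lies below them (1.89 to 3.71).

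In relation to vessels, Aldh1a3 was lower in tumour cells near an endothelial-gated cell. Within 25 µm it stood at 0.226, 0.287 and 0.518 per 1000, against 0.306, 0.462 and 0.899 beyond 75 µm, lower near the vessel in each tumour (-0.69 ± 0.11, edgeR adjusted p = 0.0291, with 8.53% of genes called). Near levels in tumours 1 and 2 lay under the highest blank (0.3998 and 0.359). The call was lost without tumour 2 (-0.68, edgeR adjusted p = 0.337), without the block (edgeR adjusted p = 0.986) in cells free of non-epithelial markers (-0.78, edgeR adjusted p = 0.0547) and with the narrow gate (-0.58, edgeR adjusted p = 0.0629, 4.26% called).

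Klf4 followed the same direction without passing, at 0.728, 0.636 and 0.786 near and 0.857, 0.839 and 1.43 far (-0.54 ± 0.16, edgeR adjusted p = 0.0943). In tumour 3 it went from 0.786 per 1000 within 25 µm to 1.67 beyond 200 µm, and in tumour 2 from 0.636 to 1.07. In tumour 1 it went to 0.915 between 75 and 100 µm and was 0.577 in the 2029 cells beyond 200 µm. Cd44 showed no such gradient, at -0.03 ± 0.08 (edgeR adjusted p = 0.774). Of the 9 immediate early genes, Junb, Jun and Egr1 fell near endothelial cells, by 0.23, 0.28 and 0.33 on the log2 scale, and Tnc by 0.52.

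The difference in Klf4 by distance from fibroblasts of the narrow gate did not pass with TMM scaling. This test took tumour cells gated without Col1a1 (495360, 363110 and 554456 cells in all), a wider set than the tumour cells above. In it Klf4 was at 0.709, 0.501 and 0.567 per 1000 within 25 µm, against 1.05, 0.961 and 1.59 beyond 75 µm, lower near fibroblasts in each tumour (-1.02 ± 0.20, edgeR adjusted p = 0.0698, 0% called). With library size alone it passed at -0.997 (edgeR adjusted p = 0.0430), where 29 genes were called. Among the tumour cells defined above, Klf4 within 25 µm of these fibroblasts was at 0.673, 0.463 and 0.621 per 1000, and between 100 and 200 µm at 1.08, 1.01 and 1.65. Beyond 200 µm it was at 0.521, 1.396 and 2.51, so tumour 1 was lower there and the other two higher. The fixed fibroblast gate left only 61 far tumour cells in tumour 1, and gave -1.75 ± 0.41 (edgeR adjusted p = 0.129, 1.55% called). Cd44 was at 1.77, 2.96 and 2.25 near and 1.896, 4.02 and 2.83 far (-0.31 ± 0.10, edgeR adjusted p = 0.103).

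Near macrophage-gated cells no gene was called (0% by edgeR, 18 genes at an unadjusted p under 0.05, 13 called by DESeq2). Aldh1a3 was at 2.02 per 1000 near and 0.565 far in tumour 3 and at 0.251 and 0.534 in tumour 2, opposite directions, and at 0.331 and 0.277 in tumour 1. At the outer 150 µm of the tissue no gene was called either (0% by edgeR, 60 at an unadjusted p under 0.05, 87 by DESeq2). Aldh1a3 stood at 0.414, 0.526 and 1.65 per 1000 in the margin against 0.255, 0.380 and 0.718 beyond 500 µm (0.52 ± 0.23, edgeR adjusted p = 0.223), with blanks at up to 0.48. With library size alone, which moved the median of all genes to 0.31, it passed at 0.79 (edgeR adjusted p = 0.0499).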

How the data were processed

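One deposited table per section gives whole-number transcript counts with cells as rows and genes as columns, not normalized by the authors. The authors' cell tables give each cell's volume as a deposited signal and its centre, assumed to be in µm3 and µm. The design text names 265 genes, and the tables used here hold 258. How cells were segmented was not analysed here. Scanpy 1.9.3 appears in the submitters' processing notes, with no role.

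A cell was kept if it held 20 or more panel transcripts, measured between 50 µm3 and 3 times the median volume, and lay in tissue outlined on a 25 µm grid. Gates asked for at least 2 markers and 3 transcripts of a list. The narrow gate allowed 5% epithelial-list transcripts. For fibroblasts it applied the marker rule without Col1a1 and asked that 10% of transcripts come from the full list, Col1a1 included. Col1a1 stood at 377, 454 and 472 per 1000 in narrow fibroblasts of tumours 1, 2 and 3. Doublets were not called. Counts were summed per tumour and arm and tested in edgeR 4.0.16 (R 4.3.3; filterByExpr, TMM, tumour as block, quasi-likelihood F-test, two-sided, Benjamini-Hochberg over all genes tested, threshold 0.05). DESeq2 1.42.0 and library size alone were among the alternatives. Both arms of a comparison came from the same section, which is what pairs them. With 3 tumours the p-values concern these sections only. edgeR shares its estimate of spread across genes, so a small p-value does not mean that the 3 tumours changed alike. The main edgeR fit was tried on simulated counts for the Klf4-high and the near-macrophage comparisons only.

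The members and lists were chosen with earlier results of these data known. Genes named are the members, members of fixed lists, the 5 higher and 5 lower genes of largest change in each high against zero comparison (called, above the highest blank and of 1 sign in 3 tumours), the 5 genes most like each member over tiles and, chosen after their values were seen, genes leading the patches.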

Additional observations from a re-analysis of the deposited data

How the results depend on the processing

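Of 39 tested values of the members, 7 passed the test, and these 7 kept their direction in every alternative run. The 7 fell in comparisons that called 8.53% to 59.3% of all genes tested, so their number is not read as a trait of the members. Of 432 alternative values, 334 kept direction and side of the threshold. The cause of the changes below was not tested. Values are log2 fold changes. Without the replicate block, which treats both arms of a tumour as unpaired, calls were lost for Aldh1a3 near endothelial-gated cells (-0.77), Klf4 in cycling cells (-0.56), Aldh1a3 in stress-gated cells (2.41) and Cd44 in fibroblast-gated (-0.35) and endothelial-gated cells (-1.06), and signs turned for Aldh1a3 near fibroblasts (-0.13), Cd44 near fibroblasts (-0.048) and Aldh1a3 in fibroblast-gated (-0.041) and endothelial-gated cells (-0.059). With DESeq2, further calls were Klf4 in Aldh1a3-high cells (1.17), Aldh1a3 in Klf4-high cells (0.93), Klf4 near fibroblasts (-1.79) and endothelial cells (-0.53), Aldh1a3 at the margin (0.52), Cd44 in cycling cells (0.24), Aldh1a3 in interferon-gated cells (-0.36) and Cd44 in macrophage-gated cells (-0.29), and near fibroblasts Aldh1a3 (-0.059) and Cd44 (-0.057) turned. With library size alone Aldh1a3 at the margin passed (0.79), and Cd44 near fibroblasts (-0.056) and endothelial cells (0.010), Klf4 at the margin (0.15) and Aldh1a3 in endothelial-gated cells (-0.27) turned; this setting moved the median of all genes by over 0.1 for the margin (to 0.31), stress-gated (to -0.11), endothelial-gated (to -0.41) and macrophage-gated cells (to 0.093). With at least 40 transcripts per cell Aldh1a3 (-0.0054) and Cd44 (-0.13) near fibroblasts turned, and with near at 15 µm and far at 50 µm they were -0.26 and -0.0076. In tumour cells with 0 non-epithelial marker transcripts calls were lost for Aldh1a3 near endothelial cells (-0.78) and Klf4 in cycling cells (-0.67), and Cd44 near endothelial cells (0.060) and in basal keratin cells (0.24) turned; near fibroblasts this setting was not run, because tumour 1 had too few far cells. With gates at 5 transcripts Klf4 in cycling cells lost its call (-0.60), Klf4 (1.08) and Cd44 (-0.53) in macrophage-gated cells gained it, and Aldh1a3 (-0.14) and Cd44 (0.049) in basal keratin cells and Aldh1a3 in macrophage-gated cells (-0.10) turned. The settings added after seeing the data were the narrow gate and zero cells of the same 300 µm tile. The narrow gate gave near fibroblasts Aldh1a3 -0.56 and Cd44 -0.31 (-0.53 and -0.29 with library size alone, where Klf4 passed at -0.997), near endothelial cells Aldh1a3 -0.58, near macrophages Aldh1a3 -0.070 and Cd44 -0.066, in fibroblasts Aldh1a3 1.67 and Klf4 1.75 (0.96 and 1.04 with library size alone), in endothelial cells Aldh1a3 -0.26 with library size alone, and in macrophages Aldh1a3 -0.11, Klf4 1.97 and Cd44 -0.93 (Klf4 2.09 and Cd44 -0.82 with library size alone). Zero cells of the same tile gave Klf4 0.89 and Cd44 0.48 in Aldh1a3-high cells (0.87 and 0.46 with library size alone), Aldh1a3 0.55 (0.57) and Klf4 0.28 in Cd44-high cells and Aldh1a3 0.97 (1.02) in Klf4-high cells. With at least 2 transcripts of each gene the mean co-detection ratio moved to 1.68 for Aldh1a3 and Cd44, 3.13 for Aldh1a3 and Klf4 and 1.25 for Cd44 and Klf4. Leaving out 1 tumour at a time gave ranges of 0.59 to 1.71 for Klf4 in Aldh1a3-high cells and 0.50 to 1.43 for Aldh1a3 in Klf4-high cells. Near fibroblasts they were -0.84 to 0.99 for Aldh1a3, -2.07 to -1.36 for Klf4 and -0.076 to 0.079 for Cd44. Near endothelial cells they were -0.76 to -0.58 for Aldh1a3, -0.65 to -0.34 for Klf4 and -0.088 to 0.019 for Cd44, and near macrophages -0.44 to 0.995 for Aldh1a3. At the margin Klf4 ran from -0.43 to 0.33. In basal keratin cells the ranges were -0.31 to 0.47 for Aldh1a3, -0.47 to 1.08 for Klf4 and -0.087 to 0.058 for Cd44, in cycling cells -0.69 to -0.35 for Klf4, and in interferon-gated cells -0.034 to 0.69 for Klf4 and -0.0055 to 0.053 for Cd44. In fibroblast-gated cells they were -0.054 to 0.29 for Aldh1a3, -0.49 to 0.031 for Klf4 and -0.37 to -0.26 for Cd44, in endothelial-gated cells -0.11 to 0.16 for Aldh1a3, and in macrophage-gated cells -0.38 to 0.62 for Aldh1a3 and 0.28 to 0.62 for Klf4. Counts of genes called moved by over 1.5 times in each comparison, over all alternatives from 0 to 71 for Aldh1a3-high (50), 0 to 31 for Cd44-high (0), 0 to 91 for Klf4-high (52), 0 to 29 near fibroblasts (4), 0 to 84 near endothelial cells (22), 0 to 13 near macrophages (0), 0 to 87 at the margin (0), 0 to 76 for basal keratin (15), 1 to 121 for cycling (80), 8 to 76 for interferon (38), 14 to 132 for stress (97), 27 to 208 for fibroblast (119), 95 to 189 for endothelial (153) and 1 to 152 for macrophage cells (68), with the reported count in parentheses.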
